A study of Mus musculus with 6 samples.

Results

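The genes described here encode the nuclear part of the mitochondrial respiratory chain and ATP synthase. They were taken as every protein-coding gene whose symbol begins with Nduf, Uqcr, Cox4 to Cox8 or Atp5, together with Sdha, Sdhb, Sdhc and Sdhd. This rule found 94 of 22028 protein-coding genes (55536 gene rows in all), and 90 of the 94 had enough reads to be tested. By prefix, 46 belong to complex I, 4 to complex II, 8 to complex III, 18 to complex IV and 18 to complex V. The levels are from RNA sequencing of 6 subcutaneous B16 melanomas, B16 being a pigmented melanoma cell line of the C57BL/6 mouse. The 3 ATM KO tumors grew from B16 cells with a knockout of ATM, a kinase activated by broken DNA, and the 3 vector control tumors grew from B16 cells carrying a vector. All 6 were grown from about 100000 cells in C57BL/6J mice and collected on day 13. The title of the series concerns loss of ATM, leakage of mitochondrial DNA and immunotherapy, and the respiratory chain belongs to the organelle named there.

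Respiration passes electrons from NADH through complex I, and from succinate through complex II, to coenzyme Q. Complex III hands them on through cytochrome c to complex IV, which reduces oxygen, and complex V uses the resulting proton gradient to make ATP. Complexes I, III, IV and V are built from nuclear-encoded subunits and a few subunits encoded by mitochondrial DNA, whereas all subunits of complex II are nuclear-encoded. The prefix takes in some genes that are not subunits of the complex it names, and not all are listed here. For example, the Ndufaf genes encode assembly factors of complex I. Ndufa4 carries a complex I name although its protein is now counted with complex IV. Cyc1, the cytochrome c1 subunit of complex III, lies outside the pattern.

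How ATM was disrupted, if a single clone was used and if tumors shared a host are not in the labels. Genotype cannot be told apart from the cell line that carries it, and the p-values measure the spread between these 6 tumors, part of which may be technical. Atm counts over the whole gene were 2371, 3692 and 3132 in ATM KO tumors 1 to 3, against 2508, 2346 and 2306 in vector control tumors 1 to 3. Because the disrupted stretch is not given and host cells contribute reads, these counts do not check the labels. Gene counts summed to between 23663109 and 29037715 in ATM KO tumors and between 22101124 and 24165801 in vector control tumors. Melanocyte markers (7 of 7 expressed) summed to between 18822 and 19058 CPM (counts scaled to library size) in ATM KO tumors and to 27174, 20987 and 18811 CPM in vector control tumors 1, 2 and 3. Pan-leukocyte markers summed to between 533 and 674 CPM in ATM KO tumors and to 335, 544 and 777 CPM in vector control tumors 1, 2 and 3. Vector control tumor 1 thus stood apart from the other libraries in both sums, and results that rest on it are given with and without it. In bulk tissue, fewer cells of a type and less RNA per cell cannot be told apart.

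The promoters of 3 members are shown because they mark the range found in this group: a complex I gene with lower values in every ATM KO tumor, and a ubiquitous and a muscle gene of complex IV. The sequences are the 250 bases before the start of each gene in RefSeq (GRCm38.p6, read on the strand of the gene): chr2:36049339-36049588 on the minus strand for Ndufa8, chr5:115348959-115349208 on the minus strand for Cox6a1, and chr7:140900447-140900696 on the minus strand for Cox8b. Capitals mark matches to the letters GCGCA and GCGC with any 1 base between them, the palindromic motif of NRF1, a factor known for driving respiratory chain genes, and to CCGGAAG, the core motif of ETS factors such as GABP, on either strand.
Ndufa8: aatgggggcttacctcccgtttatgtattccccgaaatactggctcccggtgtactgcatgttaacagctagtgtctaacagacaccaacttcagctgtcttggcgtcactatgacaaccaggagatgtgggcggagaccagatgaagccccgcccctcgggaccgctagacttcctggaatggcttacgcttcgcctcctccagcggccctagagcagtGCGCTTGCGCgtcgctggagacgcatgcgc
Cox6a1: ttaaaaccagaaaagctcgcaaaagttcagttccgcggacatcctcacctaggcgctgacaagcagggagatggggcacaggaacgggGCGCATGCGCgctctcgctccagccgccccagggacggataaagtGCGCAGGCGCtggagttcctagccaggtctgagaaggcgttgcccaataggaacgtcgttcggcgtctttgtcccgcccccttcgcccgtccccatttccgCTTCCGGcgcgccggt
Cox8b: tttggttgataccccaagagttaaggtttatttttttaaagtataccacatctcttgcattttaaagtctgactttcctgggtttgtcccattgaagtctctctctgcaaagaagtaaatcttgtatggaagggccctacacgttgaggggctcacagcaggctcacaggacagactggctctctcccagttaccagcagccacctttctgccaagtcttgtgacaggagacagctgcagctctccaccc

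RefSeq promoters were matched for 76 of the 94 members. Within the window from 250 bases before to 50 after the start, the NRF1 letters occurred in 18 of the 76, or 23.7%, against 6.65% of 17492 protein-coding promoters of the same length. The ETS letters CCGGAAG occurred in 22.4% of the members and 11.96% of all promoters, and AAGATGGCG, the motif of YY1, in 9.21% and 1.93%. The letters TCAAGGTCA, bound by estrogen-related receptors, occurred in 2 members, Sdhd and Atp5g3, which is 2.63% against 0.326%. Shares for GGGCGG, the core of SP1 sites, differed little (46.1% and 46.5%). The NRF1 letters were found in 9 of 40 matched complex I genes, 2 of 3 complex II genes, 1 of 5 complex III genes, 1 of 13 complex IV genes and 5 of 15 complex V genes. Cox6a1 is the complex IV gene with a match, and holds 2. Both strands were searched, motifs of different names were searched separately, and a match is only an occurrence of the letters.

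Respiratory chain transcripts as a group were at close to the same level in ATM KO and vector control tumors. No member passed edgeR's quasi-likelihood test with a Benjamini-Hochberg adjusted p below 0.05 in either direction, where 2.21% of the 15696 tested genes were called higher and 2.75% lower. The smallest adjusted p among members was 0.0582. The median log2 fold change (ATM KO minus vector control) was -0.0059 over the 90 tested members and -0.0058 over all tested genes, with 44 members above 0 and 46 below. Without adjustment, 7 members were higher and 7 lower at p below 0.05. Together these were 15.6% of the members, against 23.0% of all tested genes (10.6% higher and 12.3% lower). The CPM values of the groups did not overlap for 6 members that were higher in ATM KO tumors and 12 that were lower, beside 14.3% and 15.4% of all genes. limma-voom called no member (1.99% of all genes higher and 2.42% lower). DESeq2 called 3 members higher, Ndufa7, Ndufaf1 and Ndufb10, and 5 lower, Cox7b, Cox5a, Cox4i1, Ndufa8 and Ndufb7, where it called 5.86% and 7.33% of all genes. None of these 8 was called at the same threshold by limma-voom or by edgeR in its main fit. Other settings of edgeR gave few member calls. At an adjusted p below 0.1, 2 members were higher and 3 lower, where 4.99% and 5.84% of all genes were called. Ndufa7 and Ndufaf1 were called higher, and no member lower, with scaling by library size alone (3.21% of all genes higher and 2.27% lower), with a minimum of 1 CPM in 3 libraries (3.73% and 3.38%) and with protein-coding genes alone (3.46% and 3.05%). Without a filter Ndufa8 was called lower and no member higher (1.48% of all genes lower and 1.51% higher).

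How small the differences were can be read from the intervals. The 95% interval of the log2 fold change lay within 0.5 on either side of 0 for 54 of the 90 members, or 60%. The share was 39.9% of all tested genes and 45.6% of the tested protein-coding genes. These sets were not matched for level, on which the width of an interval depends. Ndufa9, an accessory subunit at the junction of the arms of complex I, had 189, 179 and 192 CPM in ATM KO tumors and 195, 181 and 167 CPM in vector control tumors, a log2 fold change of 0.04 with an interval from -0.14 to 0.23. Sdha, the flavoprotein that oxidises succinate, had 372, 379 and 386 CPM in ATM KO tumors and 437, 384 and 381 CPM in vector control tumors (-0.08, interval -0.27 to 0.11). Uqcrc1, a core protein of complex III, had 235, 236 and 207 CPM in ATM KO tumors and 268, 243 and 246 CPM in vector control tumors (-0.16, interval -0.36 to 0.04). These 3 marker genes were well expressed in every tumor, and the groups overlapped for Ndufa9 and Sdha but not for Uqcrc1.

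**Figure D1:**
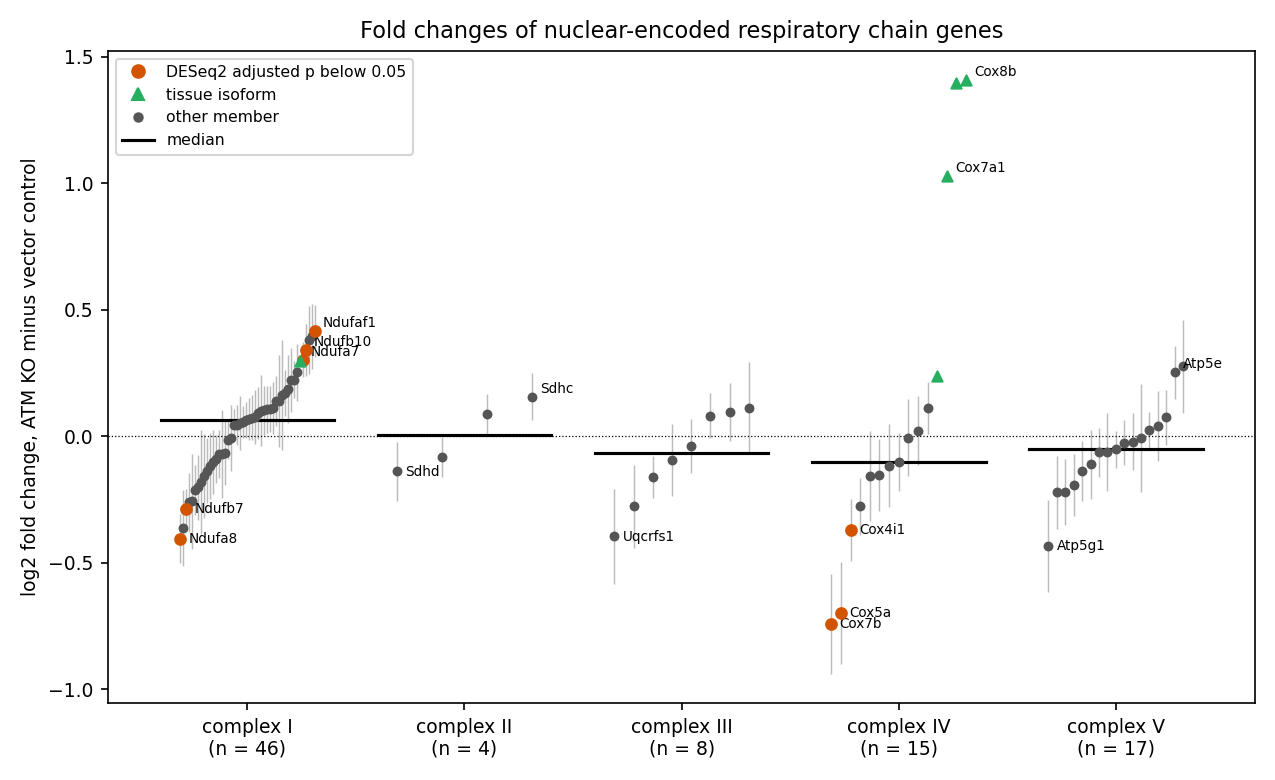
Log2 fold change (ATM KO minus vector control) of each of the 90 tested members, grouped by complex, with edgeR standard errors (not drawn for the 5 tissue isoforms). Horizontal bars are medians. Most members lie close to 0, the lowest are Cox7b and Cox5a of complex IV, and the highest are the muscle isoforms of complex IV, which have wide errors.

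Between members, levels differed far more than between genotypes. Among tested members, and on the scale of mean CPM per kilobase of annotated exon over the 6 tumors, Atp5b of complex V was highest of all at 397, and within complex V Atp5g1 was lowest at 1.10. In complex I the level per kilobase ran from 163 for Ndufa4 to 1.89 for its relative Ndufa4l2, with a median of 29.0. Complex II ran from 139.8 for Sdhd to 41.8 for Sdhc, and complex III from 181 for Uqcr10 to 25.2 for Uqcrb. In the 15 tested genes of complex IV the range was from 227 for Cox8a to 0.874 for Cox4i2, with a median of 40.7. Annotated exons include rarely used ones, so the order of neighbours depends on the length used: per kilobase of the main transcript Sdhb led complex II and Cox4i1 complex IV. Atp5b, Ndufa4 and Uqcr10 led their complexes on both scales. The lowest places of Atp5g1 and Uqcrb may not be their true levels. All coding bases of both are shared with annotated pseudogenes, so reads may be missing from their counts, as described below.

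Complex I, the NADH dehydrogenase, had more members above 0 than below. Of its 46 genes 28 had a positive and 18 a negative log2 fold change, with a median of 0.07. Without vector control tumor 1, 36 were positive and the median was 0.14. Ndufa7 (chromosome 17, 33824572 to 33838317, GRCm38), an accessory subunit, had 45.7, 43.2 and 43.4 CPM in ATM KO tumors against 37.5, 34.9 and 34.9 CPM in vector control tumors. All ATM KO tumors lay above all vector control tumors, and the log2 fold change was 0.30 ± 0.07 (SE, edgeR adjusted p = 0.0582). Ndufa8 (chromosome 2, 36036326 to 36049406), an accessory subunit on the intermembrane side of the membrane arm, had 69.2, 67.9 and 70.1 CPM in ATM KO tumors against 105, 85.2 and 84.4 CPM in vector control tumors. All ATM KO tumors lay below all vector control tumors (-0.40 ± 0.10, edgeR adjusted p = 0.0662).

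Other complex I genes with non-overlapping groups were chosen for mention after their values were seen. Ndufb10, a subunit of the membrane arm, had 82.8, 86.3 and 80.4 CPM in ATM KO tumors and 75.5, 58.7 and 62.8 CPM in vector control tumors (0.34 ± 0.10, edgeR adjusted p = 0.116). Ndufb7, also of the membrane arm, had 55.7, 54.9 and 49.4 CPM in ATM KO tumors and 69.5, 63.8 and 61.8 CPM in vector control tumors (-0.29 ± 0.08, edgeR adjusted p = 0.0941). Genes of the same arm thus lay in both directions. Ndufs1 and Ndufv1 of the catalytic core were close to level. Ndufs1, the largest subunit of the iron-sulfur part, had 218, 226 and 224 CPM in ATM KO tumors and 236, 207 and 192 CPM in vector control tumors (0.07 ± 0.09). Ndufv1, which binds NADH, was at 0.04 ± 0.06 on the log2 scale.

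The assembly factors of complex I, which are not part of the finished enzyme, had a median log2 fold change of 0.16, against 0.05 for the 38 other complex I genes. Of the 8, 6 were above 0, and the groups did not overlap for 3, all higher in ATM KO tumors, where 14.3% of all tested genes did so in that direction. Without vector control tumor 1 the median of the 8 was 0.25. Ndufaf1, which acts on the membrane arm during assembly, had 22.3, 21.9 and 23.1 CPM in ATM KO tumors and between 15.6 and 18.8 CPM in vector control tumors (0.42 ± 0.10, edgeR adjusted p = 0.0716). Ndufaf3 (0.38 ± 0.13) and Ndufaf8 (0.40 ± 0.13) were the others, named after their values were seen, with adjusted p values of 0.155 and 0.134 in edgeR. Among assembly factors outside the symbol rule, Tmem126b, a membrane protein of the same assembly complex as Ndufaf1, had 22.0, 22.6 and 22.6 CPM in ATM KO tumors against 18.97, 18.20 and 17.84 CPM in vector control tumors (0.29 ± 0.08, edgeR adjusted p = 0.0890). The 9 tested genes of that list had a median of 0.01, and none was called. Groups did not overlap for 1 that was higher in ATM KO tumors and 2 that were lower, beside 14.3% and 15.4% of all tested genes. The lower ones were Acad9 (-0.21 ± 0.08) and Foxred1 (-0.18 ± 0.10), named after their values were seen.

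Complex II, succinate dehydrogenase, differed little. Its 4 subunits had log2 fold changes from -0.14 to 0.16, and for all 4 the interval stayed within 0.5 of 0. Sdhc, a membrane anchor, had 141, 138 and 150 CPM in ATM KO tumors and 144, 118 and 123 CPM in vector control tumors (0.16 ± 0.09, and 0.25 without vector control tumor 1). Sdhd, the other anchor, had 165, 165 and 162 CPM in ATM KO tumors and 214, 164 and 163 CPM in vector control tumors (-0.14 ± 0.12). Vector control tumor 1 alone was high for Sdhd, and without it the log2 fold change was 0.0035. Sdhb, the iron-sulfur subunit, was at 0.09 ± 0.08. Of the 4 assembly factors of complex II tested, none was called (median 0.09).

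Complex III had a median log2 fold change of -0.07 over 8 genes with all libraries and of 0.09 without vector control tumor 1, which was the highest of the 6 tumors for all 8. Uqcrfs1, the Rieske iron-sulfur protein, had 107, 111 and 104 CPM in ATM KO tumors and 186, 113 and 124 CPM in vector control tumors. The groups did not overlap, but the gap to vector control tumor 2 was small (-0.40 ± 0.19, edgeR adjusted p = 0.277), and without vector control tumor 1 the log2 fold change was -0.14. Uqcr10, a small subunit with the highest level per length in the complex, was at -0.09 ± 0.14. Cyc1, outside the rule, had 200, 175 and 152 CPM in ATM KO tumors and 210, 189 and 178 CPM in vector control tumors (-0.13 ± 0.12). The assembly factors of complex III, counted with Cyc1, had a median of 0.27 over 7 genes, and 4 of them had non-overlapping groups, all higher in ATM KO tumors (14.3% of all tested genes). Uqcc1, needed for the synthesis of cytochrome b in mitochondria, had 55.0, 59.6 and 57.2 CPM in ATM KO tumors against 48.3, 39.6 and 37.4 CPM in vector control tumors (0.46 ± 0.11, edgeR adjusted p = 0.0642). Bcs1l, which inserts the Rieske protein, was at 0.39 ± 0.12 (edgeR adjusted p = 0.116).

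Complex IV, cytochrome c oxidase, held the members with the largest differences. Setting aside the tissue isoforms Cox4i2, Cox6a2, Cox7a1 and Cox8b, 9 of its 11 tested genes had a negative log2 fold change, with a median of -0.15. Cox7b (chromosome X, 106015700 to 106022450), a small subunit, had 117, 125 and 126 CPM in ATM KO tumors against 274, 169 and 171 CPM in vector control tumors. Every ATM KO tumor was below every vector control tumor, and vector control tumor 1 was far above the other controls. The log2 fold change was -0.74 ± 0.20 (edgeR adjusted p = 0.0890, DESeq2 adjusted p = 0.00277) and -0.47 without vector control tumor 1 (edgeR adjusted p = 0.0228). Cox5a (chromosome 9, 57521274 to 57532426), a subunit on the matrix side, had 102, 85.4 and 66.4 CPM in ATM KO tumors against 168, 119 and 126 CPM in vector control tumors (-0.70 ± 0.20, edgeR adjusted p = 0.106). The ATM KO tumors again lay below all controls. In Cox5a 37.9% of the coding bases lie in stretches shared with pseudogenes, and the gene overlaps the non-coding gene Gm26631, so part of its reads may be assigned elsewhere.

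Cox4i1 (chromosome 8, 120668222 to 120674207, overlapping Emc8 and Gm20388), the ubiquitous form of subunit 4, had 280, 276 and 271 CPM in ATM KO tumors against 427, 320 and 322 CPM in vector control tumors (-0.37 ± 0.12, edgeR adjusted p = 0.141, and -0.22 without vector control tumor 1). Cox6a1, whose promoter is shown above, had 127.7, 111.9 and 122 CPM in ATM KO tumors against 169, 132 and 137 CPM in vector control tumors (-0.28 ± 0.11, edgeR adjusted p = 0.212, and -0.15 without vector control tumor 1). Both had non-overlapping groups. Cox7a2, Cox8a and Cox6b1, the ubiquitous forms of other small subunits, were at -0.16 ± 0.18, -0.15 ± 0.14 and -0.01 ± 0.15. Cox7a2l was at 0.11 ± 0.10. Without vector control tumor 1, 5 of the 11 were negative and the median was 0.03, so the negative median rested on that library. Cox7b (-0.47) and Cox5a (-0.52, edgeR adjusted p = 0.136) stayed below 0 without it. The average log2 CPM of the 11 was 6.35, 6.28 and 6.29 in ATM KO tumors 1 to 3. It was 6.79, 6.39 and 6.38 in vector control tumors 1 to 3, so by this average every ATM KO tumor lay below every control. Of 23 tested assembly factors of complex IV none was called. Groups did not overlap for 3 that were higher in ATM KO tumors and 3 that were lower, beside 14.3% and 15.4% of all tested genes. Coa3, which stabilises newly made Cox1 protein, had 50.9, 51.8 and 50.8 CPM in ATM KO tumors and 44.9, 41.5 and 41.1 CPM in vector control tumors (0.27 ± 0.07, edgeR adjusted p = 0.0704). Cox18 and Cox11, named after their values were seen, were among the lower ones. Cox18 was at -0.36 ± 0.11 (edgeR adjusted p = 0.127). Cox11 had 16.2, 16.5 and 16.6 CPM in ATM KO tumors and 32.0, 20.8 and 18.9 CPM in vector control tumors (-0.54 ± 0.20, edgeR adjusted p = 0.176).

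Complex V, ATP synthase, had a median of -0.05 over 17 tested genes, 12 of them below 0. Without vector control tumor 1 the median was 0.03 and 7 were below 0. Atp5b, the catalytic beta subunit and the most abundant member, had 1654, 1619 and 1666 CPM in ATM KO tumors and 1939.9, 1629.9 and 1593 CPM in vector control tumors (-0.06 ± 0.10). Atp5a1, the alpha subunit, had 1073, 1144 and 1083 CPM in ATM KO tumors and 1124, 1067 and 1053 CPM in vector control tumors (0.02 ± 0.07). For these large transcript pools the intervals, from -0.29 to 0.17 and from -0.14 to 0.19, leave room only for small differences. Atp5e, the epsilon subunit of the central stalk, was at 0.25 ± 0.11 (edgeR adjusted p = 0.217). Tmem70, an assembly factor of ATP synthase outside the rule, fell to 28.8, 27.8 and 24.8 CPM in ATM KO tumors, against 48.2, 40.2 and 39.0 CPM in vector control tumors (-0.65 ± 0.11, edgeR adjusted p = 0.0340).

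**Figure D2:**
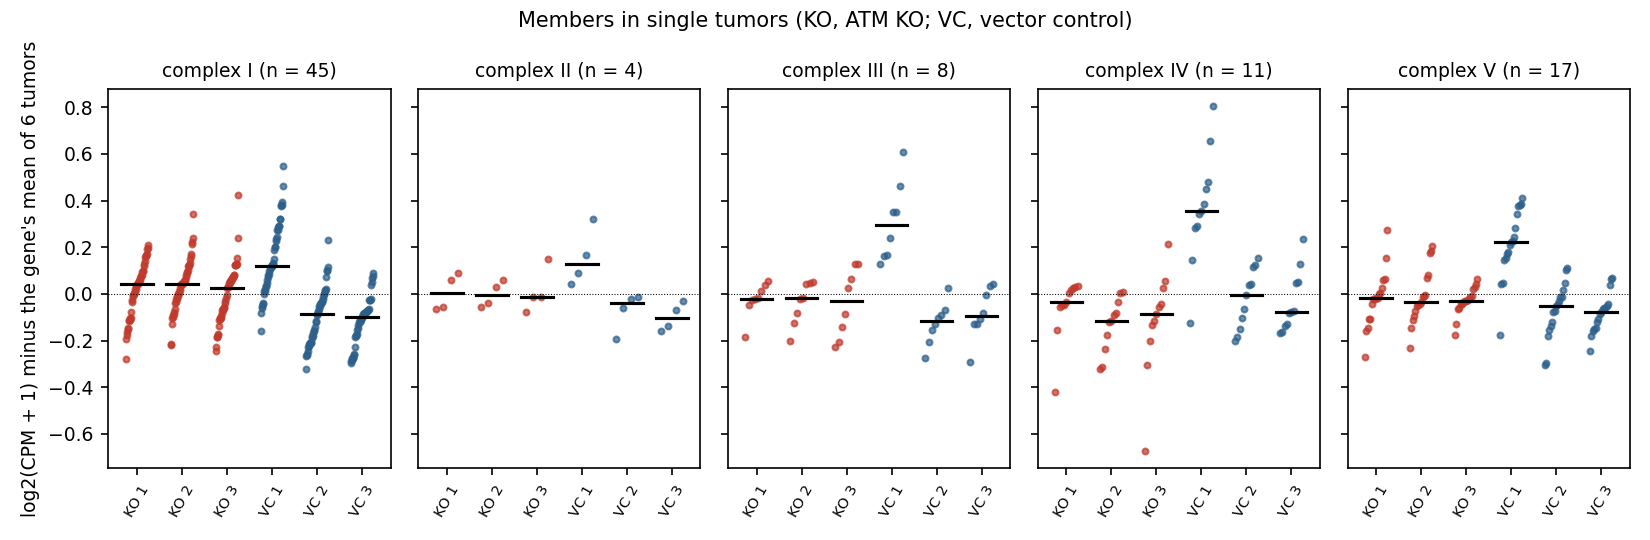
Log2(CPM + 1) of each tested member minus its mean over the 6 tumors, by complex and tumor, without the 5 tissue isoforms. Points are genes and horizontal bars are medians. Vector control tumor 1 stands above the other tumors in all 5 complexes, most in complexes III and IV, and the ATM KO tumors lie close to each other.

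The pattern that most members shared was across tumors and not across genotypes. Averaged over 85 members without the tissue isoforms, log2 CPM was 5.95, 5.95 and 5.92 in ATM KO tumors 1 to 3 and 6.16, 5.87 and 5.85 in vector control tumors 1 to 3. In this average the ATM KO tumors lay above vector control tumors 2 and 3 and below vector control tumor 1. Complex IV alone differed: its ATM KO tumors, at 6.28 to 6.35, also lay below vector control tumors 2 (6.39) and 3 (6.38). The SD of the average over the 85 members was 0.013 in ATM KO tumors against 0.18 in vector control tumors (n = 3 each). Vector control tumor 1 was the highest of the 6 tumors for 59 of the 90 members, or 65.6%, against 25.4% of all tested genes. It exceeded the mean of the other controls by 0.27 in complex I, 0.24 in complex II, 0.42 in complex III, 0.40 in complex IV and 0.29 in complex V on the log2 scale. The part of the melanocyte and leukocyte sums of vector control tumor 1 in this difference was not tested.

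Without vector control tumor 1, 64 of the 90 members were positive and the median log2 fold change was 0.09. edgeR then called 6 members higher in ATM KO tumors, Ndufa7, Ndufaf1, Ndufb10, Ndufb9, Ndufs3 and Uqcrh, and 2 lower, Cox7b and Ndufa8, where 3.64% and 3.86% of 16116 tested genes were called. At an unadjusted p below 0.05, 23 members were higher and 5 lower, against 12.6% and 13.2% of all tested genes. Ndufb9, Ndufs3 and Uqcrh are named because they are among the calls and were chosen after their values were seen: their log2 fold changes were 0.36, 0.38 and 0.36 without that tumor and 0.19, 0.25 and 0.11 with it. The overall median was thus of the other sign without this library, and it was also positive in some other fits of all 6 libraries, at 0.05 with library size alone and 0.01 in limma-voom, and below 0 with median-ratio size factors and in DESeq2.

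Cytochrome c oxidase has subunits made in a muscle form and a ubiquitous form. The muscle forms Cox6a2, Cox7a1 and Cox8b were low and differed widely between tumors of the same genotype. Cox6a2 had 4.63, 19.6 and 2.46 CPM in ATM KO tumors and 0.354, 1.19 and 8.57 CPM in vector control tumors (1.396 ± 1.31, edgeR adjusted p = 0.602). Cox8b had 0.656, 3.51 and 0.479 CPM in ATM KO tumors and 0.0442, 0.274 and 1.41 CPM in vector control tumors (1.41 ± 1.20), and Cox7a1 had 1.11, 2.86 and 1.09 CPM in ATM KO tumors and 0.531, 0.320 and 1.61 CPM in vector control tumors (1.03 ± 0.69). Skeletal muscle markers varied alongside: their 12 genes summed to 3062, 8461 and 713 CPM in ATM KO tumors and 28.4, 77.0 and 8419 CPM in vector control tumors. Cox6a2 and Cox8b ranked the 6 tumors in the same order as this sum, and Cox7a1 did so except between vector control tumors 1 and 2.

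ATM KO tumor 2 and vector control tumor 3, the tumors with most muscle RNA, had the highest levels of all 3 muscle forms. The part of muscle tissue in the fold changes was not tested, but the median of the 3 was 0.05 without ATM KO tumor 2 and 3.27 without vector control tumor 3, so neither its size nor its presence held across the libraries. Per kilobase of the main transcript, Cox6a1 was at 224, 196 and 214 CPM in ATM KO tumors and 297, 231 and 240 CPM in vector control tumors, while its muscle counterpart Cox6a2 reached at most 28.8 CPM per kilobase. The same order held for Cox7a2 over Cox7a1 and Cox8a over Cox8b in every tumor. Cox4i2, the lung and hypoxia form of subunit 4, had 0.574, 0.501 and 1.16 CPM in ATM KO tumors and 0.575, 0.366 and 0.952 CPM in vector control tumors, and Ndufa4l2, a hypoxia-induced relative of Ndufa4, had between 1.80 and 3.01 CPM in ATM KO tumors and between 1.72 and 2.07 CPM in vector control tumors. The testis forms Cox6b2, Cox7b2 and Cox8c and a second Atp5o locus had no more than 7 counts in any tumor and were not tested.

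**Figure D3:**
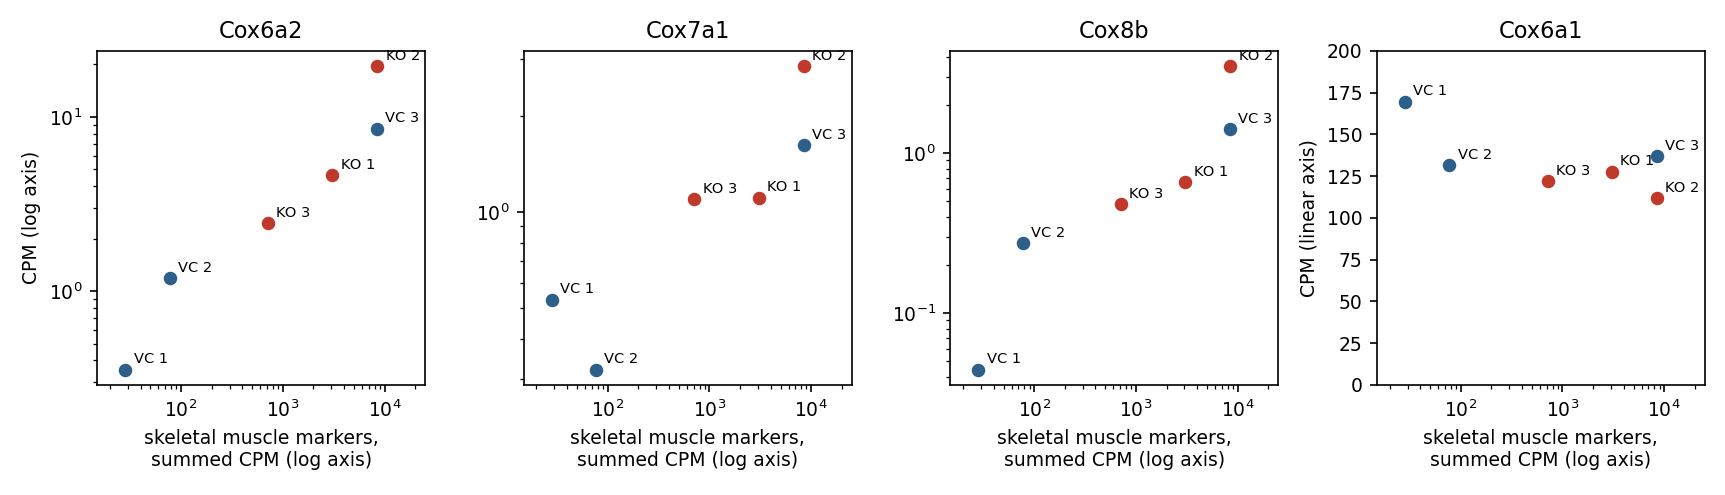
Level (CPM) of 3 muscle isoforms and of the ubiquitous Cox6a1 in each tumor, against the summed CPM of 12 skeletal muscle markers. Red points are ATM KO tumors and blue points vector control tumors. The muscle isoforms are highest in ATM KO tumor 2 and vector control tumor 3, which have the largest marker sums, whereas Cox6a1 stays between 111.9 and 169 CPM.

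Members whose whole coding sequence is repeated in annotated pseudogenes were mostly low. The counter for multiply aligned reads is listed at 0 in all 6 files, so such reads may be missing from the counts. Among the 85 tested members without the tissue isoforms, 7 had every coding base inside a stretch of 50 bases that also occurs in an annotated pseudogene: Atp5g1, Atp5g2, Atp5l, Cox7c, Ndufab1, Ndufb4 and Uqcrb. Their median level was 3.25 CPM per kilobase of exon, against 57.1 for the 52 members with no such stretch. The 26 members with part of their coding bases in such stretches had a median of 40.5. On the length of the main transcript, a scale chosen after seeing the data, the medians were 8.56, 90.0 and 81.2 in the same order. Of the 10 lowest members, 6 belonged to the 7 on the first scale and 5 on the second. The part of uncounted reads in these low levels was not tested.

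Cox7c and Cox8a show the contrast, and their coding sequences are given from the GENCODE M21 transcripts. Both encode small single-helix subunits of complex IV, on chromosomes 13 and 19. Capitals mark bases inside a 50-base stretch that also occurs in another annotated gene.
Cox7c: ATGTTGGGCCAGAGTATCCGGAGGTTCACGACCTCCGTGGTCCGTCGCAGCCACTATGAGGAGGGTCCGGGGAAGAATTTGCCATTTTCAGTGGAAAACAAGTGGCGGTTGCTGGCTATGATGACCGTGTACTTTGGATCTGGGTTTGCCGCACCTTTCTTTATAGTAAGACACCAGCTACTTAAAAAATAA
Cox8a: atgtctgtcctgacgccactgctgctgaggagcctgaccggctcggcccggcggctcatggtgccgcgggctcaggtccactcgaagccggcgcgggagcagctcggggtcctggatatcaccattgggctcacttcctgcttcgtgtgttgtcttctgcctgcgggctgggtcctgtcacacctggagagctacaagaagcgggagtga

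All 192 coding bases of Cox7c are shared, with 3 pseudogenes, and none of the 210 of Cox8a. Cox7c was read at 5.82, 5.23 and 5.54 CPM in ATM KO tumors and 6.46, 6.36 and 5.17 CPM in vector control tumors, and Cox8a at 140, 128 and 131 CPM in ATM KO tumors and 182, 129 and 132 CPM in vector control tumors. The c-ring subunit of ATP synthase shows the same split: its protein is encoded by Atp5g1, Atp5g2 and Atp5g3, whose mature forms are the same. Atp5g1 had 4.26, 4.40 and 5.17 CPM in ATM KO tumors and 7.25, 5.81 and 5.63 CPM in vector control tumors, Atp5g2 between 2.09 and 2.19 CPM in ATM KO tumors and between 1.77 and 2.38 CPM in vector control tumors, and Atp5g3, which shares none, 323, 328 and 305 CPM in ATM KO tumors and 350, 278 and 279 CPM in vector control tumors. The log2 fold change of Atp5g1 was -0.43 ± 0.18 (edgeR adjusted p = 0.220), and its level relative to Atp5g3 cannot be read from counts of this kind.

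**Figure D4:**
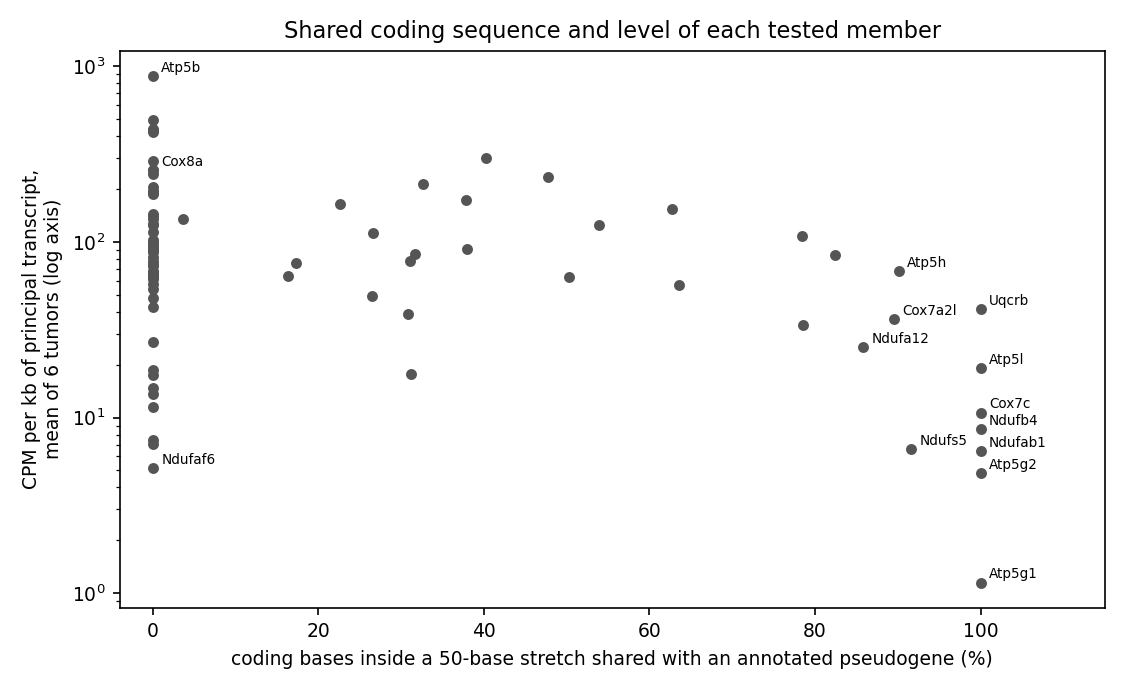
Level of each tested member (CPM per kilobase of the main transcript, mean of 6 tumors, log axis) against the share of its coding bases inside a 50-base stretch that occurs in an annotated pseudogene, without tissue isoforms. The 7 members at 100% lie between 1.15 and 41.3, against a median of 90.0 for the members at 0%.

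Members differed from each other partly along the genome. The log2 fold change of a member correlated with the median log2 fold change of the other tested genes within 5 Mb of it, with a Pearson r of 0.66 across the 85 members without tissue isoforms and the same sign for 66 of them. Over all 15692 tested genes with a neighbour, r was 0.24, with the same sign for 9906. Spearman's rank correlation was 0.64 for the members and 0.35 for all genes, and the sets were not matched for level. These are descriptions across genes, which share the 6 libraries and overlapping windows. On chromosome 8, Cox4i1, Ndufb7 and Ndufa13 had a median of -0.29 where all 826 tested genes of the chromosome had -0.26. On the X chromosome, Cox7b, Ndufa1 and Ndufb11 were all below 0, with a median of -0.36. The genes within 5 Mb of Cox7b had a median of -0.27, but all 506 tested genes of the chromosome had -0.07. On chromosome 17, Ndufa7 and Ndufb10 lay among genes with medians of 0.21 and 0.18, and on chromosome 2, Ndufaf1 among genes with 0.25. Cox5a, on chromosome 9, and Ndufa8, on chromosome 2, were further from their surroundings (-0.14 and -0.04). Ndufa13, Ndufa1 and Ndufb11 are named for their chromosome and were chosen after their values were seen. Without vector control tumor 1 the log2 fold changes were 0.0021 for Ndufa13, -0.20 for Ndufa1 and -0.12 for Ndufb11, so that of Ndufa13 rested on that tumor. Ndufb7 was then at -0.23 and Cox4i1 at -0.22. The medians of the surrounding genes are given with all 6 libraries only. Copy number was not measured.

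**Figure D5:**
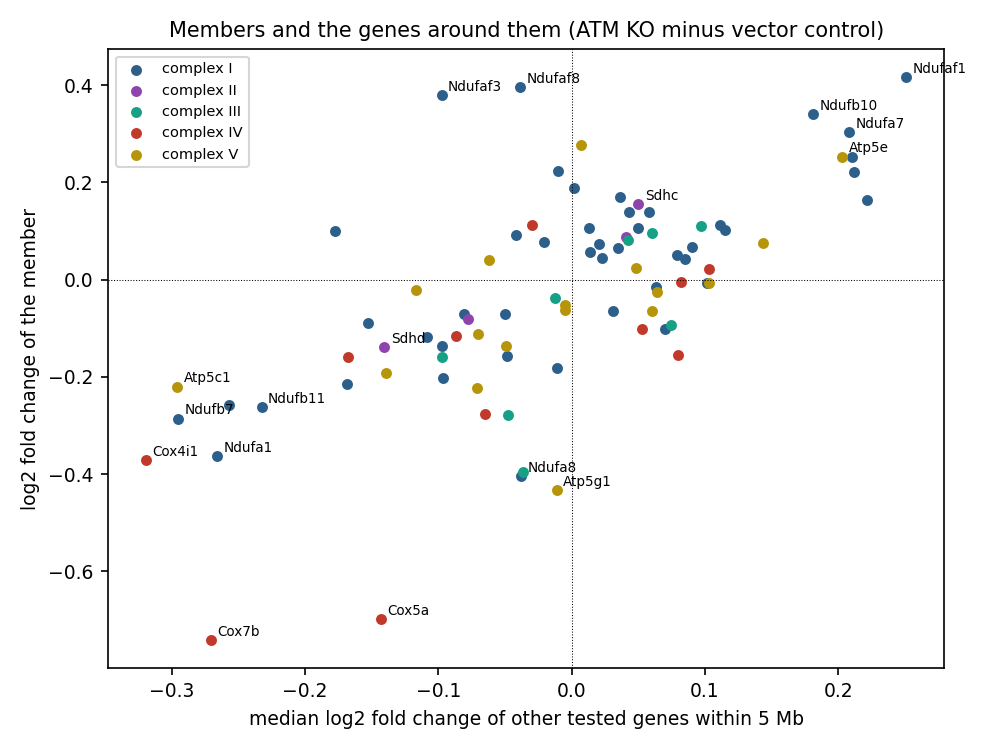
Log2 fold change of each member (ATM KO minus vector control) against the median of the other tested genes within 5 Mb, coloured by complex, without tissue isoforms. Members on the left, such as Cox4i1, Ndufb7 and Ndufa1, are mostly below 0 and those on the right, such as Ndufaf1 and Ndufa7, are above 0. Cox7b and Cox5a lie below the trend.

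Genes that serve the chain without belonging to it were read from lists of assembly factors, electron carriers and regulators. Of 71 tested assembly factors, coenzyme Q and cytochrome c genes and regulators, edgeR called 1 higher and 1 lower, where it called 2.21% and 2.75% of all genes. The gene that rose was Hccs, on the X chromosome, which attaches heme to cytochrome c: it had 51.8, 54.3 and 53.1 CPM in ATM KO tumors against 38.5, 35.1 and 32.4 CPM in vector control tumors (0.59 ± 0.08, edgeR adjusted p = 0.0235). The gene that fell was Tmem70, described above. Both calls were lost when any library other than vector control tumor 1 was left out. Of 9 regulators none was called, and 2 were above 0 and 7 below (median log2 fold change -0.08). The lowest was Ppargc1a, another coactivator, added after its values were seen. It had 324, 475 and 487 CPM in ATM KO tumors and 880, 423 and 462 CPM in vector control tumors 1 to 3 (-0.46 ± 0.33, edgeR adjusted p = 0.478). Vector control tumor 1 was thus high for Ppargc1a too, and a link to the members was not tested. The 2 genes with the smallest p-values follow. Ppargc1b, a coactivator of mitochondrial genes, was at 0.41 ± 0.14 (edgeR adjusted p = 0.161), and Nrf1, whose letters are marked above, had 45.2, 45.5 and 46.2 CPM in ATM KO tumors against 50.02, 54.37 and 50.13 CPM in vector control tumors (-0.17 ± 0.06, edgeR adjusted p = 0.173).

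The mitochondrially encoded mRNAs of the same complexes could be tested for 7 of 13 genes. The others were mt-Atp6, mt-Atp8, mt-Co2, mt-Co3, mt-Nd3 and mt-Nd4l. Their counts were 0 in every tumor, except for 1 count of mt-Co3 in vector control tumor 3. By contrast, mt-Co1 had between 3984 and 5674 CPM. These counts of 0 cannot be read as absent transcripts, and the part of uncounted reads in them was not tested. All 7 tested genes had a positive log2 fold change, from 0.11 for mt-Nd5 to 0.36 for mt-Cytb, with overlapping groups, and none passed (smallest edgeR adjusted p = 0.244).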

How the data were processed

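Total RNA of 6 tumors was sequenced, and each deposited file lists the unnormalised read counts of 1 library by gene. The submitters' processing notes name HTSeq, STAR, SAMtools, cutadapt and Trim Galore, and the builds mm10 and GRCm38, without roles or versions. No source used here gives the strand setting, so reads of the 41 members that overlap another annotated gene may not be told apart from it. Rows without a gene stayed out of totals and tests: reads outside genes were 16.7% to 18.2% and ambiguous reads 1.21% to 1.38% of each library. Gene coordinates, lengths and transcripts are from GENCODE M21 (GRCm38).

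Low genes were removed by edgeR 4.0.16 (filterByExpr, at least 10 counts and 15 in total), and libraries were scaled by TMM (factors 0.958 to 1.03) and tested with the robust quasi-likelihood F test, with genotype in the model. P-values were adjusted by Benjamini and Hochberg's method over 15696 genes, at a threshold of 0.05. CPM are TMM-scaled. The biological coefficient of variation was 27.6%, which with 3 tumors per group sets the precision. Libraries of a group differed by more than sampling noise. The test was tried on simulated data with known changes. R 4.3.3, limma 3.58.1, DESeq2 1.42.0 and Python 3.11.15 were used. The members and lists were chosen with earlier results of these data known. Genes were named if they were the 3 marker genes, core or isoform subunits, the 2 smallest p-values or the highest and lowest level per length of a complex, or called or lowest-p members of the related lists; the text prints examples and says where others were added, and 1 named gene is left unreported. Alternatives were size factors, filters, thresholds, DESeq2, limma-voom, a replicate block, non-robust dispersions, coding genes alone, another transcript length and leaving out each tumor.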

Additional observations from a re-analysis of the deposited data

How the results depend on the processing

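The absence of member calls in edgeR depended on tool, scaling and libraries. At a threshold of 0.1, edgeR called 2 members higher and 3 lower, where 4.99% and 5.84% of all tested genes were called. It called Ndufa7 and Ndufaf1 higher with library size alone (3.21% of all genes), with a minimum of 1 CPM in 3 libraries (3.73%) and with protein-coding genes alone (3.46%). Without a filter it called 1 lower, Ndufa8 (1.48% of all genes). DESeq2 called 3 higher and 5 lower (5.86% and 7.33% of all genes). Leaving out 1 tumor at a time gave 0 to 6 members higher and 0 to 2 lower. The calls arose without vector control tumor 1, where 3.64% and 3.86% of all genes were called. Over all tested genes, 347 were called higher and 431 lower, against 920 and 1150 in DESeq2, 26 and 22 at a threshold of 0.01, and 0 to 587 higher and 2 to 622 lower with 1 tumor left out. With all 6 libraries, the median of the members was 0.047 with library size alone, 0.027 with protein-coding genes alone and 0.023 with at least 1 CPM. It was 0.010 without a filter, 0.013 in limma-voom and 0.013 with the replicate block. In these fits the median of all genes moved alike (0.042 with library size alone) except without a filter (-0.0058). With 1 tumor left out, the median of the members lay between -0.02 and 0.09, and that of all genes did not follow it. Without vector control tumor 1 the members were at 0.09 and all genes at -0.0093. With vector control tumor 2 left out the values were -0.021 and 0.023, and with vector control tumor 3 left out -0.020 and 0.011.

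The labels give no pairing of tumors by number, and same-numbered tumors did not deviate together (correlations 0.04, -0.27 and -0.42). With a replicate block no gene was called (0 higher and 0 lower, with 1434 and 1570 at an unadjusted p below 0.05), and Tmem70 (-0.64) and Hccs (0.59) lost their calls.

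Small differences changed sign. Cox6b1 was at 0.047 with library size alone, 0.011 without a filter, 0.026 with at least 1 CPM, 0.016 in limma-voom, 0.017 with the replicate block and 0.027 with protein-coding genes alone, and Atp5g2 at 0.039, 0.0096, 0.021, 0.0031, 0.0032 and 0.025 in the same order. With 1 tumor left out the ranges were -0.075 to 0.19 for Cox6b1, -0.12 to 0.10 for Atp5g2, -0.052 to 3.27 for Cox8b, -0.0054 to 0.055 for Atp5a1, -0.24 to 0.67 for Cox4i2, -0.19 to 0.0035 for Sdhd, -0.25 to 0.084 for Cox7a2, -0.22 to 0.026 for Cox8a, -0.17 to 0.032 for Ndufa4, -0.11 to 0.033 for Atp5b, -0.16 to 0.085 for Uqcr10 and -0.16 to 0.028 for Ndufab1. The median level of the 7 members with fully shared coding sequence was 3.25 CPM per kilobase of exon union and 8.56 per kilobase of main transcript. The cause of these changes was not tested.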
